A study of Mus musculus with 11 samples.

Results

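The genes described here are 10 members of Norrin and canonical Wnt signalling, namely Ndp, Fzd4, Fzd5, Lrp5, Lrp6, Tspan12, Axin2, Apcdd1, Ctnnb1 and Tcf7l2, out of 25311 genes in the table. They were chosen by name from the pathway, with earlier results of these data known, and all 10 had a row. Retinas of mice at P10 (postnatal day 10) were dissociated and single cells were sequenced with inDrop, a droplet method that counts unique molecular identifiers (UMIs). The 11 libraries, 1 per mouse, were control mice given PBS (n = 3), mice given streptozotocin, STZ (n = 3), and STZ mice nursed by dams on an ω-3 diet (n = 2) or an ω-6 diet (n = 3). All were C57BL/6J mice. STZ was injected daily from P1 and gives an early hyperglycaemia that models Phase I of retinopathy of prematurity, so these mice are called Phase I ROP mice below. The study's methods call control and STZ mice littermates but also give smaller litters for mice with STZ, so a shared litter is not certain. The mice of both diets, which all received STZ, were littermates split between dams. As a model it gives a high blood glucose in pups born at term, and pups given STZ weigh less, which the study's methods offset through the number of pups per litter.

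Norrin, the protein of Ndp, is a secreted ligand that binds the receptor Frizzled-4 with its co-receptor LRP5 and the tetraspanin TSPAN12 on endothelial cells. Binding keeps β-catenin (Ctnnb1) from being degraded, and β-catenin then works with TCF/LEF factors such as TCF7L2 on target genes, of which Axin2 and Apcdd1 also restrain the pathway. Loss of any of the genes for Norrin, Frizzled-4, LRP5 or TSPAN12 leaves the retina with too few deep vessels, and variants in them are known from familial exudative vitreoretinopathy.

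On the GRCm38 build, GENCODE M21 places Ndp (ENSMUSG00000040138.7) on the minus strand at chrX:16885521-16911774 and Axin2 (ENSMUSG00000000142.15) on the plus strand at chr11:108920349-108950783. The 250 bases upstream of the RefSeq start (GRCm38.p6) are printed for Ndp, the ligand gene, and for Axin2, the member with the largest called fold in Phase I ROP. They lie at chrX:16911775-16912024, minus strand, and chr11:108920099-108920348, plus strand, and each is written 5′ to 3′ along its gene. Capitals mark a match, on either strand, to a TCF/LEF-type string, which was CTTTGAA or the forms CTTTGAT or else CTTTGTA or finally CTTTGTT.
Ndp: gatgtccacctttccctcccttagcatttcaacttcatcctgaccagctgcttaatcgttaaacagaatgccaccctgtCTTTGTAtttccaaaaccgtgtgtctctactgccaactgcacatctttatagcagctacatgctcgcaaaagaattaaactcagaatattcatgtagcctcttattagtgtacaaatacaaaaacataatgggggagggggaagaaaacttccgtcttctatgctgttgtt
Axin2: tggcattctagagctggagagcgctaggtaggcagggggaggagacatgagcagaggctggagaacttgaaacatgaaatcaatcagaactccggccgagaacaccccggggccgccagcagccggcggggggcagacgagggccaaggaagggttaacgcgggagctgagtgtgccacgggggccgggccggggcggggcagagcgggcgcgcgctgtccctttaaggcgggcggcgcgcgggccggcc
The Ndp window held 1 match, to CTTTGTA, starting at base -171 from the gene's start, and the Axin2 window held 0. Of 32851 windows of this length upstream of RefSeq starts, 14.8% held a match. Entries were found for 7 of the 10 genes, and among their other windows only 1 of those of Tcf7l2 held a match. Lrp5, Lrp6 and Apcdd1 had no entry.

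After a filter at 300 genes per cell, 20033 cells remained, and 25 clusters were joined into classes by marker genes, so that a class name stands for cells like that type by their markers. The classes were rods (9967 cells), bipolar cells (3596), amacrine cells (3287), Müller glia (1425) and cones (1126), and the small classes of vascular cells (113, with endothelial and pericyte markers), retinal ganglion cells (96), pigment epithelium (75), microglia (59), astrocytes (47) and horizontal cells (31). Another 211 cells stayed unnamed. Total UMIs per mouse ran from 2565568 to 6517776, with medians of 1003.5 to 2341 UMIs per cell, and 2352 cells carried a barcode that occurred in more than 1 library. The 3 control libraries stood apart from all 8 STZ libraries. In sums over all cells, Rn7sk, a small nuclear RNA, was at 193 to 290.2 CPM (counts-per-million values, with UMIs as the counts) in controls and 1.15 to 16.2 in the others, mt-Rnr2, the mitochondrial large ribosomal RNA, at 28190 to 41190 against 3060 to 8232, and Fosb, an immediate early gene, at 0.39 to 0.89 against 116 to 230.8. These values move with every difference between control and Phase I ROP given below, and library preparation and treatment cannot be told apart.

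Levels by class are given in CPM of the class, as mean ± SD over the 11 mice for the 5 large classes and as pooled values with an exact Poisson 95% interval for the small ones. These intervals cover counting error only. Levels are compared between classes within a gene, never between genes.

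Ndp, the ligand gene, was highest in Müller glia, horizontal cells and astrocytes. It was at 54.2 ± 21.2 (SD, n = 11) in Müller glia, at 11.9 ± 6.72 in amacrine cells, and at 1.73 ± 3.00, 1.04 ± 1.37 and 1.00 ± 1.65 in cones, rods and bipolar cells. The lowest Müller sample (32.8) was above the highest amacrine sample (26.5), and amacrine cells were above cones in 11 of 11 mice although the ranges overlapped. Cones, rods and bipolar cells did not differ beyond their spread. A Ndp UMI was seen in 9.68% of Müller glia (median 2082 UMIs per cell), 2.56% of amacrine cells (3053), 0.167% of bipolar cells (2260.5) and 0.110% of rods (1054), and the shares in rods and bipolar cells were taken as the level of stray signal. Among small classes, horizontal cells had 50.9 (interval 30.7 to 79.6) and astrocytes 50.2 (27.4 to 84.2), both from 19 or fewer UMIs. Vascular cells had 0 Ndp UMIs, which allows up to 4.39 CPM at a limit of 3 counts, and microglia and pigment epithelium had 0 at looser limits of 18.9 and 28.9.

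Fzd4, the receptor that Norrin uses, was arranged differently. It was highest in pigment epithelium, at 174 (103 to 274), and in vascular cells, at 61.5 (44.3 to 83.1), and low in Müller glia (3.08 ± 3.76) and amacrine cells (2.29 ± 1.81). Cones (9.11 ± 7.39), rods (7.82 ± 5.67) and bipolar cells (4.36 ± 4.18) lay between these, and none of the neighbours in this order differed beyond their spread in the large classes. The pigment epithelium value rests on 18 UMIs and the vascular value on 42. The order of these small classes depends on the groups summed, since vascular Fzd4 was at 16.1 in control mice, 63.5 in Phase I ROP mice, 150.1 in ω-3 mice and 75.97 in ω-6 mice. The retinal pigment epithelium was taken off before dissociation, so these 75 cells are what remained of it. Fzd5, a Frizzled receptor known from early eye development, was at 180 ± 30.1 in Müller glia, whose lowest sample (135) was far above the highest of any other large class (25.45), and at 183 (136 to 240) in astrocytes. It was at 12.5 ± 5.63 in amacrine cells, 11.1 ± 8.81 in cones, 8.01 ± 6.53 in rods and 1.93 ± 1.65 in bipolar cells, with overlap between each pair of neighbours. In pigment epithelium Fzd5 was at 96.4 (46.2 to 177.3), from 10 UMIs. These lay in 4.0% of the 75 cells, so they are not independent counts and the interval is too narrow. The gene Gm38058 overlaps Fzd5 on the opposite strand, with 32 UMIs in all and 6 cells that held both.

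Lrp5 and Lrp6, the co-receptors of Wnt ligands, were spread across all large classes. Lrp5 ran from 17.2 ± 5.84 in amacrine cells to 31.9 ± 23.4 in rods, and Lrp6 from 29.5 ± 10.3 in bipolar cells to 43.6 ± 21.8 in Müller glia. No large class stood apart from its neighbour for either gene. Among the named small classes, Lrp5 was highest in astrocytes, at 68.1 (41.0 to 106.3) from 19 UMIs. Lrp6 was highest in pigment epithelium, at 106.1 (52.95 to 189.8) from 11 UMIs, and then in astrocytes, at 71.7 (43.8 to 110.7) from 20 UMIs. In vascular cells Lrp5 was at 33.7 (21.4 to 50.5) and Lrp6 at 24.9 (14.5 to 39.9). Horizontal cells had 0 Lrp6 UMIs, which allows up to 8.04 CPM.

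Tspan12, which helps Norrin signal through Frizzled-4, was highest in vascular cells, at 84.9 (64.5 to 110). Astrocytes followed at 82.4 (52.2 to 124), horizontal cells at 72.4 (47.7 to 105) and retinal ganglion cells at 40.3 (30.6 to 52.0), with intervals that overlapped between neighbours. In the large classes it was at 38.1 ± 13.6 in Müller glia, 16.5 ± 4.86 in amacrine cells and 5.61 ± 4.03 in bipolar cells, and at 1.23 ± 1.66 in rods and 0.552 ± 0.976 in cones. Müller glia were above amacrine cells in 10 of 11 mice.

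The vascular class thus held the receptor and TSPAN12 genes and no Ndp UMI. Within it, 79 cells had endothelial markers ahead and 32 had pericyte markers ahead. Tspan12 was at 99.0 (74.0 to 130) in the former and 38.7 (14.2 to 84.3) in the latter, and Fzd4 at 68.6 (48.0 to 94.9) and 38.7 (14.2 to 84.3), with intervals that overlapped for both genes. Fzd4 UMIs were found in 26.6% of the cells with endothelial markers ahead, against 0.752% of rods, and Tspan12 UMIs in 36.7%, against 0.160% of rods. The vascular cells had a median of 4392 UMIs and the rods 1054.

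**Figure D1:**
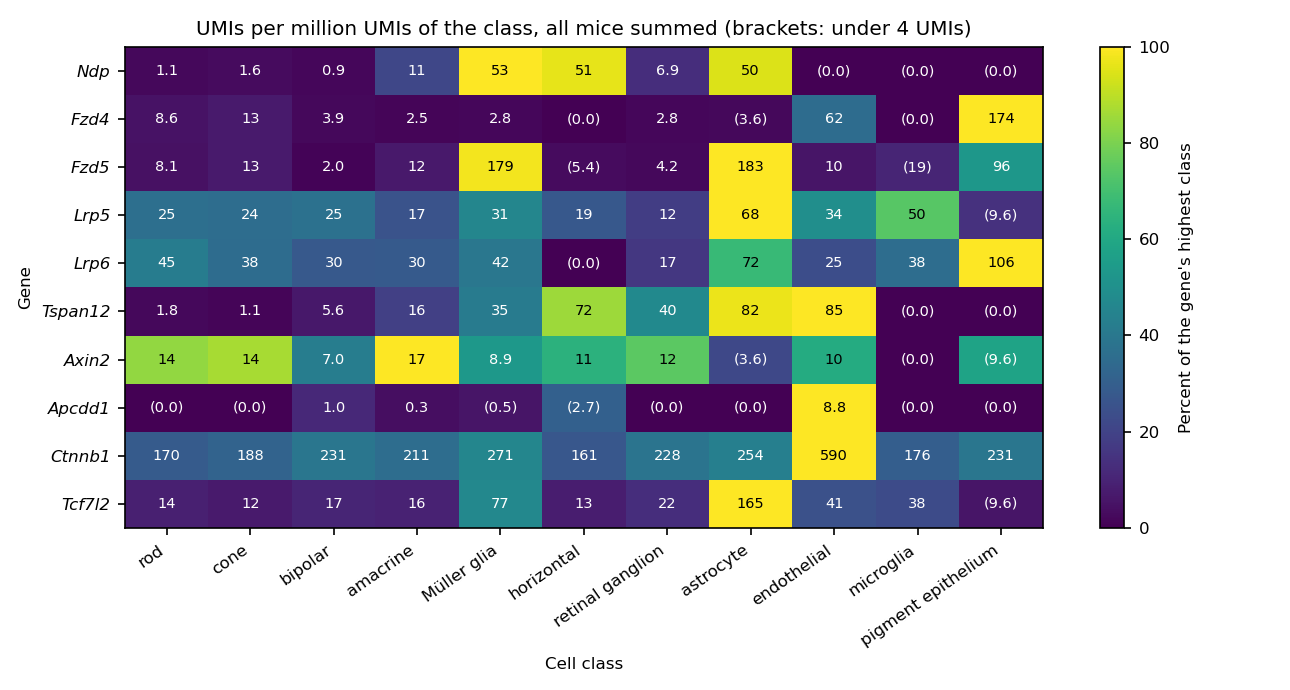
Levels of the 10 genes (rows) in 11 cell classes (columns), in CPM with all mice summed, each number printed in its cell and brackets marking values from under 4 UMIs. Colour gives the percent of the gene's own highest class: Ndp, Fzd5 and Tcf7l2 are near their highest value in Müller glia or astrocytes, Tspan12, Apcdd1 and Ctnnb1 in the vascular column (labelled endothelial), and Fzd4 in pigment epithelium, followed by the vascular column.

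Tcf7l2, which encodes a nuclear partner of β-catenin, was again a glial gene here, at 76.9 ± 22.2 in Müller glia, with a lowest sample of 42.6, and at 165 (121 to 220) in astrocytes. Bipolar cells (17.5 ± 7.44), amacrine cells (16.2 ± 4.06), cones (15.9 ± 14.5) and rods (15.3 ± 4.20) did not differ beyond their spread. The highest cone sample (54.0) reached above the lowest Müller sample, while the ranges of Müller glia and bipolar cells did not overlap.

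Ctnnb1 was counted in every class, from 150 ± 54.1 in rods to 267 ± 73.5 in Müller glia, and reached 590.2 (534 to 651) in vascular cells. The Ctnnb1 counts carry a limit of their own. The annotated gene Ulk4, which encodes a kinase-like protein, lies on the opposite strand and shares 759 exon bases with the 3′ end of Ctnnb1, and 98.2% of the 5452 cells with an Ulk4 UMI also had a Ctnnb1 UMI, with a correlation of 0.936 between the counts of both genes over cells. Ulk4 held 0.838 UMIs for each Ctnnb1 UMI in the large classes. Whether strand was used in counting is not given in the sources used here, so reads from these genes cannot be told apart, and every Ctnnb1 value below stands for Ctnnb1 or Ulk4 transcripts.

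Axin2, the target gene most often used as a readout of the pathway, was low and broad, from 7.61 ± 5.26 in bipolar cells to 16.3 ± 11.4 in amacrine cells, without a class that stood apart. Its SD was large against the mean in each class, and its values by group are given below. Apcdd1, a membrane inhibitor, had 22 UMIs in 22 cells of the whole table. Of these, 6 were in the 113 vascular cells, which gives 8.79 CPM (3.23 to 19.1), against 1.01 (0.460 to 1.91) from 9 UMIs in bipolar cells and 0 in rods, a limit of 0.231.

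Genes whose levels followed a similar pattern were ranked by Pearson's r of log2(UMIs CPM + 10) over the 55 sums of 5 large classes in 11 mice, among 10904 genes with at least 500 UMIs. These points share libraries and classes, so r is a description. The pattern of Ndp was most like those of Adam23 (r = 0.938), Kdr (0.936) and Ptn (0.935), and that of Tspan12 was most like those of Dkk3 (0.930), Atp1b3 (0.926) and Ptn (0.924). Fzd5 was closest to Syn3 (0.941), Qrfpr (0.941) and Espn (0.939), and Tcf7l2 to Fxyd1 (0.885), Cd9 (0.884) and Vcam1 (0.884). Kdr encodes a VEGF receptor best known from endothelial cells, and Dkk3 a protein of the Dickkopf family. No vascular cells entered these sums, so the likeness of Ndp to Kdr is one within the large classes. For Axin2 the closest were Slc45a4 (0.760), Foxp1 (0.733) and Cln8 (0.726), for Fzd4 Klhdc8b (0.791), with Ahr (0.763) also among the closest, for Lrp5 Tulp3 (0.640), Il17rd (0.633) and Exd1 (0.624), and for Lrp6 Ccnl2 (0.710), Tnrc6b (0.675) and Gxylt1 (0.657). Ctnnb1 was closest to Ulk4 (0.972), the gene that overlaps it, then to Dpf2 (0.880) and Stt3b (0.858).

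The first comparison asked how Phase I ROP changed these genes in each large class. In Phase I ROP, Axin2 rose in amacrine cells, Ctnnb1 rose in rods, bipolar cells and amacrine cells, Lrp6 rose in amacrine cells, Lrp5 fell in rods, bipolar cells and amacrine cells, and Tcf7l2 fell in rods. UMIs were summed per mouse and class and tested with edgeR's quasi-likelihood test, with an adjusted p under 0.05 (Benjamini-Hochberg over all genes of the class) as the call. Of 22 gene and class pairs with enough counts to be tested, 9 were called, 5 higher and 4 lower in Phase I ROP, against 35.1% of all gene and class pairs tested. By class, 4 of 8 members were called in amacrine cells (38.8% of all genes tested there), 2 of 4 in bipolar cells (45.3%), 3 of 4 in rods (38.1%), 0 of 1 in cones (18.8%) and 0 of 5 in Müller glia (10.8%). The members' share is thus near that of genes at large. The 0 in cones and Müller glia goes with 1 and 1 members at an unadjusted p under 0.05, beside 1072 of 3125 and 1324 of 4855 genes at large. DESeq2 also called 0 in both classes. The test filtered out Axin2 in rods, cones, bipolar cells and Müller glia, and Fzd4 and Apcdd1 in all 5 classes. Fold changes are relative to the scaled library (TMM). Before that scaling, the median gene was higher in Phase I ROP by 0.37 on the log2 scale in rods, 0.43 in bipolar cells, 0.36 in amacrine cells, 0.26 in cones and 0.13 in Müller glia, so that CPM rise more, or fall less, than the fitted folds.

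Axin2 in amacrine cells was at 4.9, 0.97 and 2.3 CPM in control mice 1 to 3 and at 20.2, 24.2 and 38.7 in Phase I ROP mice 1 to 3. Every Phase I ROP mouse was above every control mouse. The fitted log2 fold change was 2.94 (SE 0.52, adjusted p = 0.000535 with edgeR), and 8 UMIs stood against 79. The 2 largest amacrine clusters each showed it, at 3.59 (0.740 to 10.5) against 39.7 (27.1 to 56.0) in cluster 3 and 2.78 (0.756 to 7.11) against 20.8 (13.9 to 29.9) in cluster 4, control first.

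Axin2 was also low in control rods and bipolar cells, where the test had too few counts. Control rods held 1 UMI over the group (0, 0 and 2.1 CPM by mouse) and Phase I ROP rods 42 (12.7, 25.6 and 12.05), a ratio of 15.4 with a counting interval of 2.62 to 623. Control bipolar cells held 1 UMI (0, 0 and 0.99 CPM) and Phase I ROP bipolar cells 18 (11.2, 13.9 and 6.1), a ratio of 27.6 (4.35 to 1148). In both classes the mice of the groups did not overlap. Control cones held 0 UMIs and Phase I ROP cones 15, but the 0 allows up to 17.8 CPM beside a pooled 21.1 in Phase I ROP, so an absence from control cones could not be shown at this depth. With no filter on low counts, edgeR called Axin2 in rods (log2 fold change 3.81, SE 1.04, adjusted p = 0.00274) and bipolar cells (3.98, SE 1.07, adjusted p = 0.00185), folds that depend on the prior count, and not in cones (adjusted p = 0.253).

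Müller glia did not show the Axin2 difference clearly. Control Müller glia held 6 UMIs (15.5, 0 and 5.2 CPM) and Phase I ROP Müller glia 12 (0, 0 and 47.1), all 12 in mouse 3, a ratio of 2.11 (0.731 to 6.84). The groups overlapped. Whether the fold in Müller glia differed from that in amacrine cells was not tested. Over all cells, Axin2 was at 3.32, 0.390 and 2.37 CPM in control mice and 15.7, 18.7 and 21.5 in Phase I ROP mice, against 13.05 and 15.2 in ω-3 mice and 15.2, 14.1 and 11.2 in ω-6 mice. All 8 STZ libraries lay above the 3 control libraries, and the 5 of the diets lay below those of the 3 Phase I ROP mice.

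**Figure D2:**
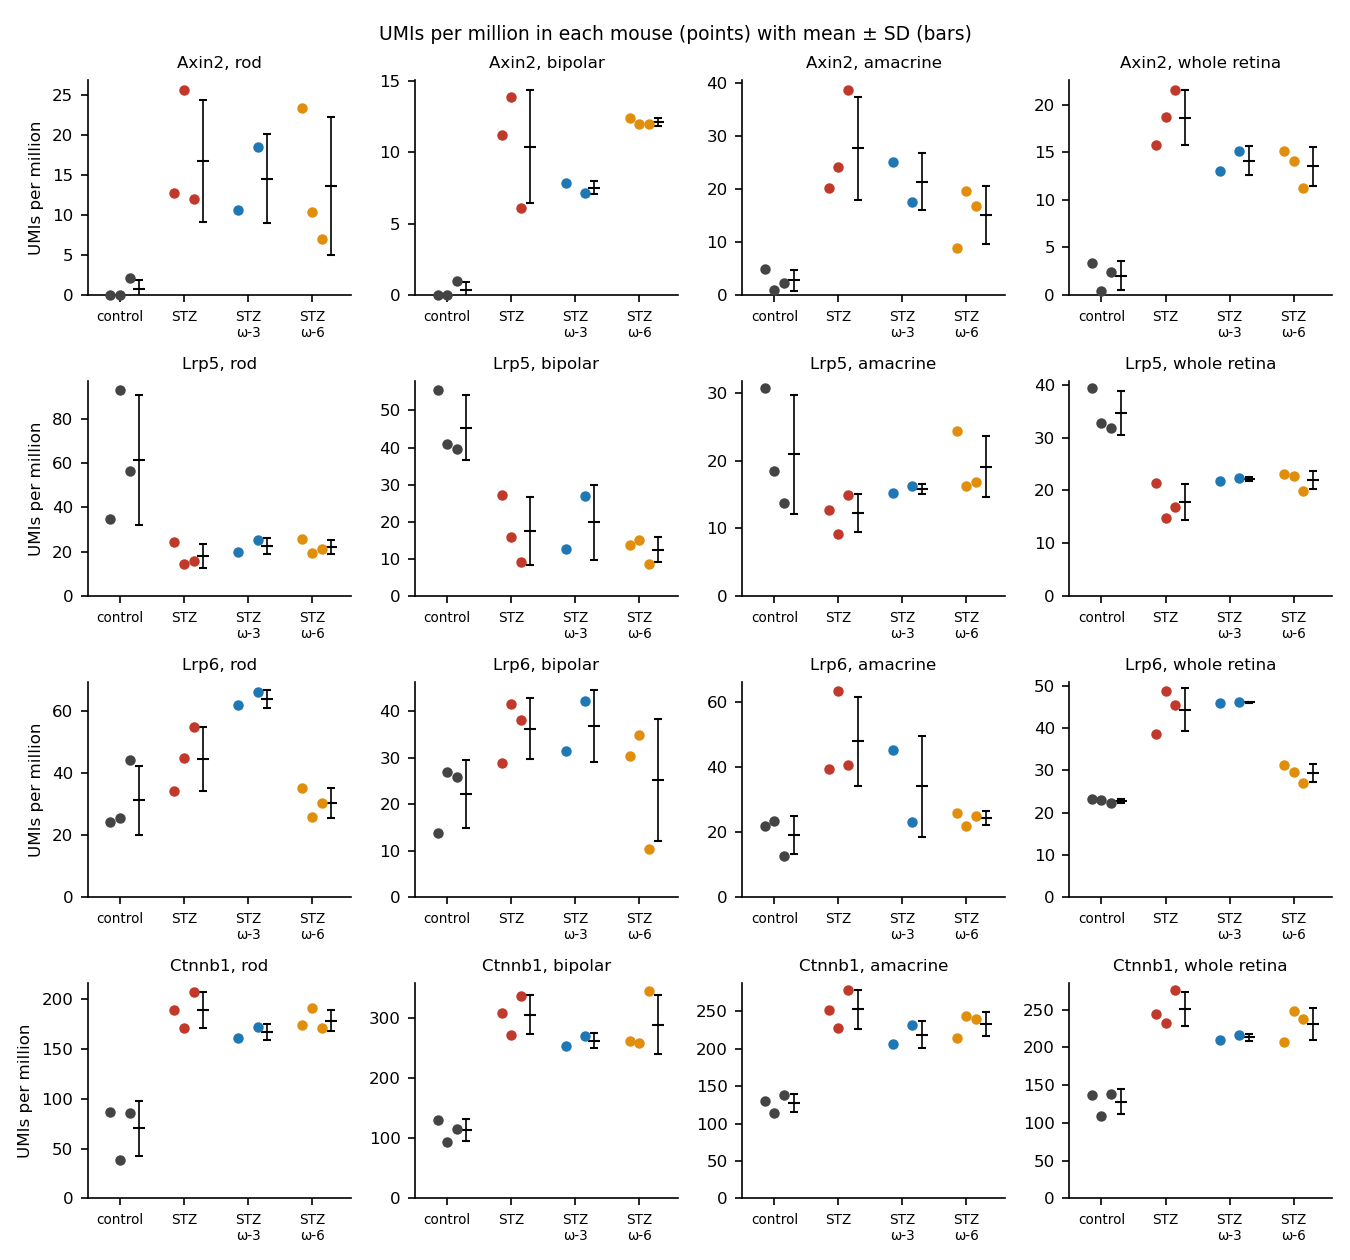
CPM (y axis, from 0) of Axin2, Lrp5, Lrp6 and Ctnnb1 in rods, bipolar cells, amacrine cells and whole-retina sums, by group on the x axis, each point a mouse and each bar the mean ± SD. For Axin2 and Ctnnb1 all mice given STZ lie above the 3 control mice in these panels, and for Lrp5 in rods all 8 mice given STZ lie below them. For Lrp5 and Lrp6 in amacrine cells the mice of both diets overlap the control mice.

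Ctnnb1 rose in bipolar cells, rods and amacrine cells. In bipolar cells it was at 130, 93.7 and 116 in control mice and 308, 271 and 336 in Phase I ROP mice, a log2 fold change of 1.02 (SE 0.17, adjusted p = 0.000248). In rods it was at 86.8, 38.1 and 86.0 against 189.5, 171 and 208 (1.04, SE 0.27, adjusted p = 0.00718), and in amacrine cells at 131, 113.5 and 138 against 251, 227 and 279 (0.64, SE 0.15, adjusted p = 0.0034). The groups did not overlap in any of these classes. Cones (1.08, SE 0.47, adjusted p = 0.106) and Müller glia (0.66, SE 0.22, adjusted p = 0.0723) had folds of the same sign that missed the threshold. Ulk4 had nearly the same folds, 0.98 (SE 0.17) in bipolar cells, 0.96 (SE 0.28) in rods and 0.62 (SE 0.16) in amacrine cells, and in Müller glia it passed the threshold (0.84, SE 0.23, adjusted p = 0.0303).

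Lrp5 moved the other way. In rods it was at 34.7, 93.0 and 56.6 in control mice and 24.4, 14.4 and 15.8 in Phase I ROP mice (log2 fold change -2.03, SE 0.43, adjusted p = 0.00161). In bipolar cells it was at 55.5, 41.0 and 39.6 against 27.3, 15.8 and 9.2 (-1.77, SE 0.38, adjusted p = 0.00187). In both classes the groups did not overlap. In amacrine cells the values of 30.7, 18.4 and 13.7 against 12.7, 9.2 and 14.9 overlapped (-1.10, SE 0.39, adjusted p = 0.0357), and this call was lost on leaving out control mouse 1 (-0.75, adjusted p = 0.205), on leaving out Phase I ROP mouse 1, 2 or 3 in turn (adjusted p = 0.0705, 0.129 and 0.0621), and with DESeq2 (adjusted p = 0.0811). Amacrine Lrp5 in the diet mice lay within the control range, at 15.3 and 16.3 in ω-3 mice and 24.3, 16.3 and 16.8 in ω-6 mice. In Müller glia Lrp5 had too few counts for the test, with 34.9, 12.3 and 10.3 against 28.2, 41.2 and 11.8, groups that overlapped.

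Lrp6, the related co-receptor, was at 21.8, 23.3 and 12.5 in control amacrine cells and 39.2, 63.4 and 40.7 in Phase I ROP amacrine cells, without overlap (0.94, SE 0.31, adjusted p = 0.0248). The call was lost without control mouse 3 (adjusted p = 0.0831), without Phase I ROP mouse 2 (0.130) and with DESeq2 (0.0531). Amacrine Lrp6 in the diet mice, which also received STZ, overlapped the control values. It was at 45.1 and 23.1 in ω-3 mice and 25.9, 21.9 and 24.8 in ω-6 mice. Rods (0.09, SE 0.38) and bipolar cells (0.28, SE 0.34, without overlap) had smaller folds that missed the threshold, and whether they differed from the amacrine fold was not tested.

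Tcf7l2 in rods was at 20.8, 21.2 and 21.0 in control mice and 10.7, 14.4 and 12.05 in Phase I ROP mice (-1.11, SE 0.43), with an adjusted p of 0.0495 that was lost without any 1 of the 3 control mice (0.102 to 0.179), with DESeq2 (0.123), with the replicate number as a block (0.107), with all 4 groups in 1 fit (-0.94, 0.104) and with no filter on low counts (-0.72, 0.43). Of the 9 alternatives that gave a value, 2 kept the call. With any 1 Phase I ROP mouse left out it had too few counts for the test. Bipolar (-0.35, SE 0.43), amacrine (-0.56, SE 0.33) and Müller (0.40, SE 0.37) values missed the threshold. The rod class holds 9 clusters, and its largest made up 54.1% of control rods and 82.9% of Phase I ROP rods. The 8 rod markers summed to 7550 to 12780 CPM in control rods and 21540 to 30860 in Phase I ROP rods, with 0 of the 8 at 0 UMIs. In rods of the largest cluster alone, an alternative chosen after the data were seen, Ctnnb1 was still called (0.89, adjusted p = 0.0222), and Lrp5 and Tcf7l2 had too few counts for the test. The part of this shift in the rod results was otherwise not tested.

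RNA of other classes was measured through marker sums, of which a part is given here. The 8 rod markers summed to 330 to 384 CPM in control amacrine cells and 556 to 828 in Phase I ROP amacrine cells, and to 543.5 to 914 and 1071 to 1454 in bipolar cells, with 0 of the 8 at 0 UMIs. The 8 Müller markers summed to 168 to 198 and 244 to 278 in amacrine cells, with 0 of the 8 at 0 UMIs. Rod markers in Müller glia summed to 263.5 to 460 in control and 665 to 1813 in Phase I ROP. Amacrine markers in rods did not rise, at 170 to 393 and 132.5 to 165. A class's own markers were also higher in Phase I ROP in bipolar cells (6229 to 6614 against 8013 to 9775) and amacrine cells (2937 to 2957 against 4611 to 5313). Their part in the differences of Axin2, Ctnnb1, Lrp5 and Lrp6 was not tested.

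In Müller glia, the main source of Ndp, no member passed the test. Ndp was at 46.5, 36.8 and 46.5 in control mice and 56.5, 92.8 and 94.2 in Phase I ROP mice. The groups did not overlap, yet the fold of 0.73 (SE 0.36) had an adjusted p of 0.21. Fzd5 (0.21, SE 0.25), Lrp6 (0.67, SE 0.49) and Tcf7l2 (0.40, SE 0.37) overlapped between the groups. Tspan12 had too few counts for the test in Müller glia, at 27.1, 36.8 and 46.5 against 65.9, 36.1 and 35.3, and in amacrine cells its fold was -0.55 (SE 0.37, adjusted p = 0.247).

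**Figure D3:**
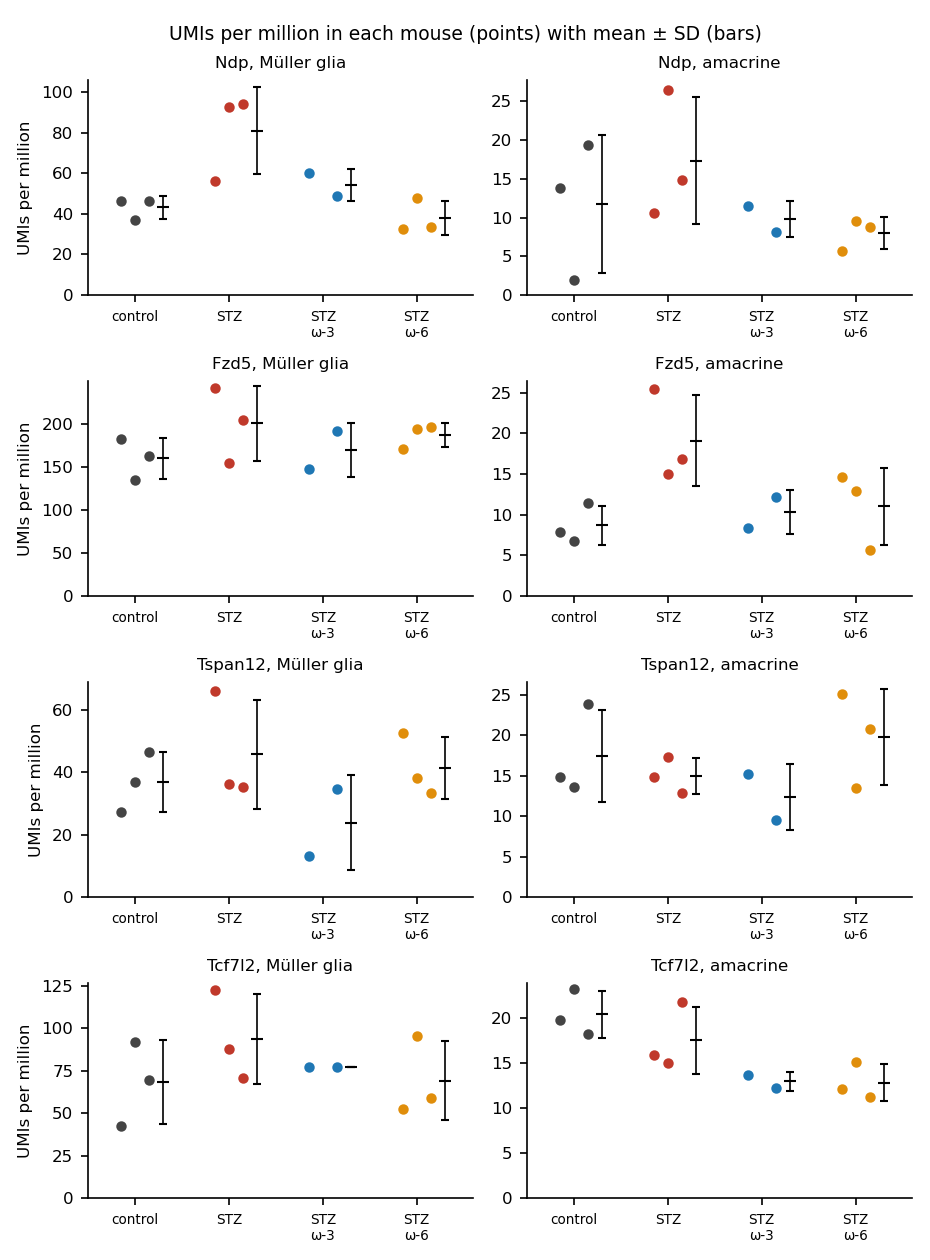
CPM (y axis, from 0) of Ndp, Fzd5, Tspan12 and Tcf7l2 in Müller glia (left) and amacrine cells (right), by group on the x axis, each point a mouse and each bar the mean ± SD. The Ndp values of the 3 Phase I ROP mice in Müller glia, 56.5 to 94.2, lie above the control values of 36.8 to 46.5, while the diet mice, at 32.8 to 60.04, overlap the control mice.

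Vascular cells, where Norrin acts, were too few for a test, with as few as 2 cells in a mouse. Fzd4 had 1, 0 and 3 UMIs in control mice 1 to 3 and 0, 6 and 1 in Phase I ROP mice 1 to 3, so that 6 of the 7 in Phase I ROP came from mouse 2. Axin2 had 0 UMIs in control mice and 3, 1 and 0 in Phase I ROP mice, with 3 of the 4 in mouse 1. These counts are too few for a direction. Tspan12 had 3, 4 and 11 UMIs against 7, 3 and 0, and Lrp5 had 0, 3 and 1 against 2, 1 and 2. Ctnnb1 was at 170, 412.5 and 381 CPM in control mice and 843, 614 and 1023 in Phase I ROP mice, without overlap, and its pooled ratio was 2.31 (1.70 to 3.16) from 85 and 87 UMIs. This interval treats the mice as 1 pool and so leaves out the spread between mice.

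Over all cells of a mouse, Axin2, Ctnnb1 and Lrp6 rose and Lrp5 fell as in amacrine cells, and Fzd4 rose. In these sums, 5 of 9 members tested were called, against 48.1% of all genes. Axin2 (2.88, SE 0.43, adjusted p = 0.000249), Fzd4 (2.54, SE 0.41, adjusted p = 0.000443), Ctnnb1 (0.70, SE 0.14, adjusted p = 0.00135) and Lrp6 (0.69, SE 0.16, adjusted p = 0.00414) were higher and Lrp5 lower (-1.21, SE 0.21, adjusted p = 0.000606). In such sums more cells of a class and more RNA per cell cannot be told apart, and the cell counts of classes differ between groups.

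Fzd4 could be tested in no single class. It was at 1.1, 0.78 and 1.8 in control mice and 7.9, 10.1 and 9.2 in Phase I ROP mice over all cells, without overlap. In rods 2 UMIs stood against 36, a ratio of 6.61 (1.70 to 56.6), and in bipolar cells 1 stood against 13, a ratio of 19.9 (2.99 to 845.7). With no filter on low counts, edgeR called Fzd4 in rods (adjusted p = 0.0354) and bipolar cells (0.0159) and not in amacrine cells (0.508) or cones (0.588).

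The second comparison asked whether the diet changed these genes among STZ mice. No member passed the test in any class, with 0 of 32 gene and class pairs called by edgeR (0.00365% of all pairs tested) and 0 by DESeq2. At an unadjusted edgeR p under 0.05 were 2 of the 32, beside 4209 of 54770 pairs over all genes. By class, 0 of 7 members were called in rods (0.0159% of all genes), and 0 of 5, 5, 8 and 7 in cones, bipolar cells, amacrine cells and Müller glia (0.0% in each). In whole-retina sums 0 of 9 were called (0.0%), with 2 at an unadjusted p under 0.05, beside 1328 of 18821 genes at large. With 2 mice against 3, few genes at large passed the threshold, so sizes and SEs are given below.

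The member closest to a call was Lrp6. In rods it was at 61.8 and 66.0 in ω-3 mice and 35.3, 25.7 and 30.2 in ω-6 mice, without overlap, a log2 fold change of -0.94 (SE 0.20, adjusted p = 0.326 with edgeR). Every ω-3 mouse was above every ω-6 mouse by more than the spread within either diet. The alternatives disagreed on the call, which edgeR made with no filter on low counts (adjusted p = 0.0126) and with the replicate number as a block (0.0245). Over all cells Lrp6 was at 46.0 and 46.2 against 31.4, 29.7 and 27.1 (-0.57, SE 0.15, adjusted p = 0.682), and in bipolar cells, amacrine cells and Müller glia the folds of -0.43, -0.41 and -0.48 had SEs of 0.41, 0.30 and 0.44. In cones the fold had the other sign (0.36, SE 0.39), with overlap.

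Tspan12 differed in the other direction, at 9.3 and 7.1 over all cells in ω-3 mice and 12.6, 15.4 and 13.5 in ω-6 mice (0.84, SE 0.24, adjusted p = 0.682). The groups did not overlap. Its folds were 0.74 (SE 0.39) in amacrine cells and 0.90 (SE 0.50) in Müller glia, and in vascular cells 2 UMIs stood against 28, of which 27 came from ω-6 mouse 2. For Ndp in Müller glia the fold was -0.45 (SE 0.38, adjusted p = 0.994), with 60.04 and 48.8 against 32.8, 47.8 and 33.5, without overlap. Axin2 over all cells (0.02, SE 0.22) and Lrp5 over all cells (0.07, SE 0.17) had folds within 1 SE of 0.

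**Figure D4:**
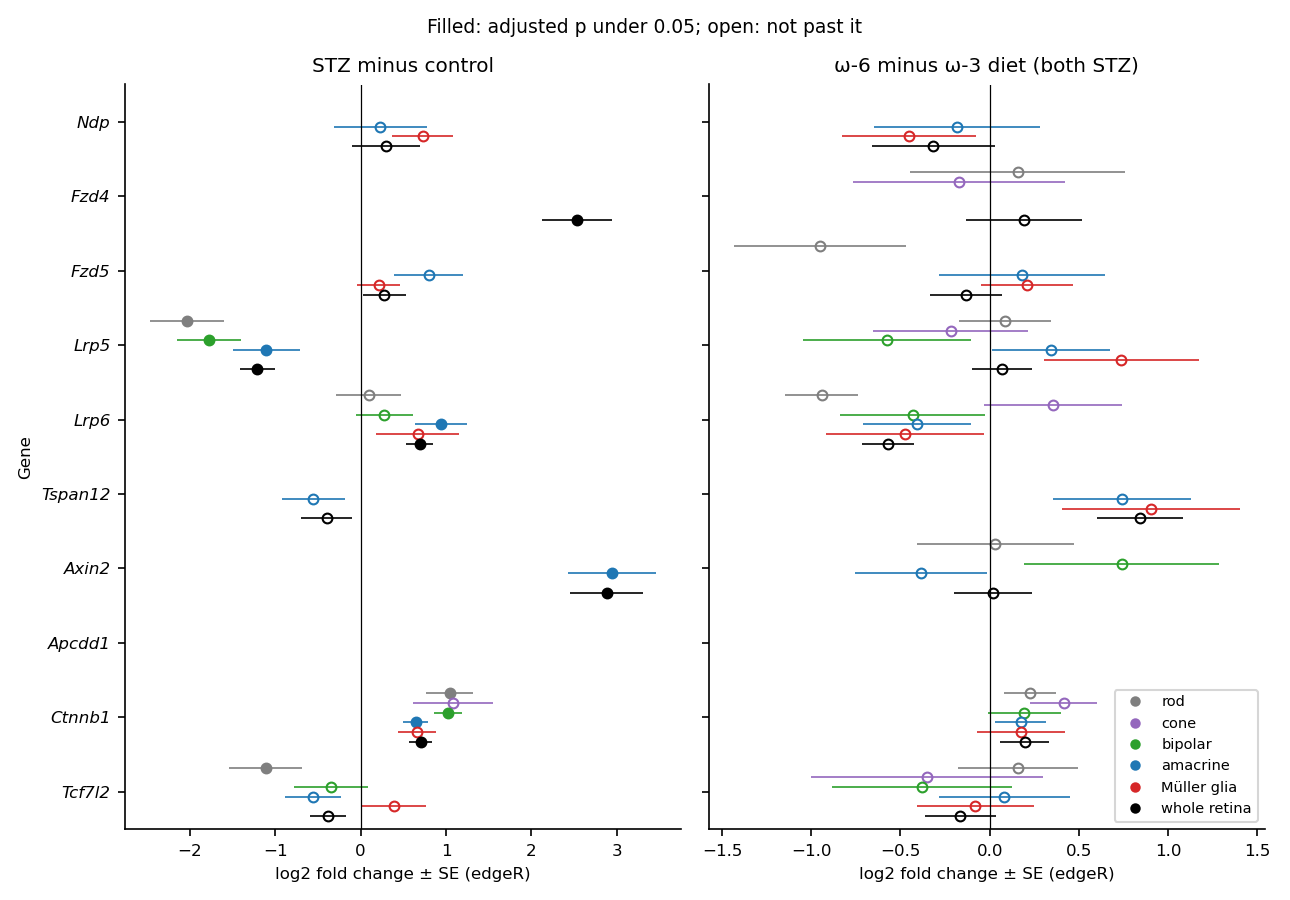
Log2 fold changes ± SE from edgeR (x axis) of each gene (rows) by class (colour), for Phase I ROP minus control on the left and ω-6 minus ω-3 diet on the right, on separate scales, with filled points for an adjusted p under 0.05. Axin2 and Fzd4 stand furthest to the right on the left side and Lrp5 furthest to the left, and all points of the diet comparison are open.

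The rest of the pathway was followed through 7 lists with 104 distinct genes, of which 87 were matched in the table. Over the 5 classes, 52 of 134 gene and class pairs tested were called in Phase I ROP, 47 higher and 5 lower, beside 35.1% of all pairs, and the median log2 fold change was 0.56 against 0.03 over all genes. Genes of the destruction complex and Dishevelled, which set how much β-catenin is degraded, gave 23 of 55 pairs higher and 0 lower (median 0.62). Nuclear partners of β-catenin gave 14 of 33 higher and 2 lower (median 0.62), and receptors and co-receptors other than the members 6 of 15 higher and 0 lower (median 0.91). The receptor calls were Ryk in rods, bipolar cells and amacrine cells, Lgr4 in rods, Fzd3 in bipolar cells and Lgr5 in amacrine cells. Wnt ligands and their secretion gave 0 of 6 higher and 1 lower, which was Wnt4 in rods. Secreted and membrane inhibitors gave 1 of 16 higher and 2 lower, and common target genes 2 of 11 higher and 2 lower. The lower calls in both lists were those of Znrf3, a ubiquitin ligase that removes Frizzled receptors, in rods (-1.64, SE 0.38) and bipolar cells (-0.56, SE 0.18), where the groups overlapped. Endothelial genes under Norrin control gave 2 of 6 higher and 0 lower, both of them Slc2a1, in cones and amacrine cells. The 5 classes hold no vascular cells, so this count does not show these genes in endothelium. Fzd3 and Znrf3 were chosen after their values were seen, as were Lgr5 and Ccnd1 below.

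In amacrine cells, 19 of 38 pathway genes tested were higher and 0 lower, beside 38.8% of all genes called, 2066 higher and 2325 lower. The largest increases without overlap were those of Bcl9l, a co-activator that binds β-catenin (2.32, SE 0.75), Dvl2, a Dishevelled protein (2.10, SE 0.55), and Axin1, the scaffold of the destruction complex (1.81, SE 0.42). The target genes Lgr5 (1.15, SE 0.20), which encodes an R-spondin receptor, and Ccnd1 (1.09, SE 0.37), which encodes cyclin D1, also rose there. Both are from the list of common target genes, which does not hold Axin2. Lgr5 was also among the 10 leading genes of amacrine cluster 3, so here it also marks a kind of amacrine cell. That cluster made up 43.4% of control and 41.3% of Phase I ROP amacrine cells. The 10 amacrine markers summed to 2937 to 2957 CPM in control and 4611 to 5313 in Phase I ROP amacrine cells. The part of these markers in the Lgr5 and Ccnd1 values was not tested. In bipolar cells, 16 of 35 were higher and 1 lower, beside 45.3% of all genes, 2137 higher and 2399 lower. The increases were led by Bcl9l (2.81, SE 0.59), Axin1 (2.35, SE 0.45) and Tpbg, a membrane protein that dampens Wnt signals (1.99, SE 0.46).

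In rods, 4 of 22 were higher and 4 lower, beside 38.1% of all genes, 1463 higher and 1571 lower. Lgr4, another R-spondin receptor (2.98, SE 0.54), Pygo2, a nuclear co-factor (2.35, SE 0.57), and Ryk, a Wnt receptor (1.59, SE 0.39), rose. Wnt4, a ligand (-2.26, SE 0.42), Pygo1, the paralogue of Pygo2 (-1.54, SE 0.46), and Tcf7l1, the repressor-type relative of Tcf7l2 (-1.10, SE 0.40), fell. Wnt4 was also the pathway gene with a fall without overlap in whole-retina sums (-1.08, SE 0.23).

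In cones, 5 of 12 were higher and 0 lower, beside 18.8% of all genes, 340 higher and 247 lower. They were led by Slc2a1, the glucose transporter GLUT1 (3.53, SE 0.98), and the casein kinase genes Csnk1d (2.70, SE 0.72) and Csnk1e (1.99, SE 0.68). The control side of these cones is thin, with 13 to 46 cells per mouse. Slc2a1 had 1 UMI there against 62, a ratio of 14.7 with a counting interval of 2.54 to 589.5, and Csnk1d 3 against 96, a ratio of 7.58 (2.52 to 37.4). In Müller glia, 3 of 27 were higher and 0 lower, a share near the 10.8% of all genes called there (282 higher and 244 lower), namely Tnks, a tankyrase that marks axins for breakdown (2.88, SE 0.49), Tle3, a co-repressor (2.10, SE 0.51), and Csnk1d (1.58, SE 0.41). In whole-retina sums 20 of 63 were higher and 4 lower, a smaller share than the 48.1% of all genes called (3943 higher and 3734 lower). The lower ones were Wnt4 and, with overlap between the groups and chosen after their values were seen, Znrf3 (-0.58, SE 0.15), Cldn5, which encodes a tight-junction protein of endothelium (-1.22, SE 0.42), and Lef1, a TCF/LEF factor (-0.94, SE 0.36). Vascular cells held 249094 of 8650167 UMIs in control mice and 110198 of 9356459 in Phase I ROP mice. The part of this shift in the Cldn5 value was not tested. The largest increases were those of Fzd10, a Frizzled receptor (4.52, SE 0.67, from 3 UMIs against 97, a ratio of 29.9 with a counting interval of 9.93 to 147.5), Bcl9l (2.23, SE 0.54) and Axin1 (1.82, SE 0.24). All folds named for these genes have an adjusted p under 0.05 by edgeR.

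In the diet comparison, 0 of 195 pathway gene and class pairs were called by edgeR and 0 by DESeq2. At an unadjusted edgeR p under 0.05 were 20 of the 195, beside 4209 of 54770 pairs over all genes. The median log2 fold change was -0.06 against 0.01 over all genes.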

How the data were processed

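Per the study's methods, the authors captured cells with inDrop v3, sequenced them on a NextSeq, resolved cell barcodes and molecules with bcbio-nextgen, dropped barcodes with few reads and assigned reads to GRCm38 transcripts with Rapmap. What was deposited are raw, whole-number UMI counts by gene and by cell. Whether strand was used is not given in the sources used here.

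Cells with more than 300 genes were clustered with Seurat 5.3.0 (2000 variable genes, 0 of them members, 75 components, resolution 0.2) and clusters were named by canonical markers. Without the members and pathway lists, 97.8% of cells kept their class. Scrublet in scanpy 1.11.5 marked 72 cells (0.359%), too few to have worked, so the 5% of cells with the highest scores (990) were also left out as an alternative.

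UMIs were summed per mouse and class, in classes with at least 10 cells in each mouse, so the mouse was the replicate. Mice of a group differed beyond counting noise (chi-square per degree of freedom of 3.71 or more). Only the groups compared entered each fit, in edgeR 4.0.16 (R 4.3.3), quasi-likelihood test, TMM scaling, default filter on low counts, Benjamini-Hochberg adjusted p under 0.05. Alternatives were a replicate block, all groups in 1 fit, DESeq2 1.42.0, no filter, median-of-ratios scaling, over 500 genes per cell, thinned sums, doublets left out, clustering without the members, rods of the largest cluster, and leaving out each mouse. Tests were first tried on simulated counts. Small classes have summed counts with exact Poisson or, for ratios, exact binomial 95% intervals, which cover counting error only.

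All 10 members are named. Of the other pathway genes, the 3 largest increases and the 3 largest decreases of each class are named from the calls without overlap between groups, and any other gene is said to be chosen later. The members and lists were chosen with earlier results of these data known. 17 listed genes were not analysed here. One of the genes with a similar pattern is not reported here. Gene coordinates are from GENCODE M21 and promoters from RefSeq.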

Additional observations from a re-analysis of the deposited data

How the results depend on the processing

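For Phase I ROP against control, 9 gene and class pairs of the members were called. Leaving out each mouse in turn gave 6 to 8, DESeq2 gave 6 and no filter on low counts 12, the additional calls being Axin2 and Fzd4 in rods and bipolar cells, with Tcf7l2 in rods lost. All of the other alternatives gave 7 to 10, and in whole-retina sums all gave 5. Of the refitted values of the called members, 197 kept the call, 15 lost it and 0 changed sign, the lost ones being Tcf7l2 in rods and Lrp5 and Lrp6 in amacrine cells, and the cause was not tested. For the other pathway genes, 52 pairs were called, 36 to 46 on leaving out each mouse, 37 with DESeq2 or thinned sums and 68 with no filter.

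For the diets, 0 member pairs were called, also on leaving out each mouse (0 to 0), but 1 with no filter and 1 with the replicate block, Lrp6 in rods both times. The 0 for other pathway genes became 2 with no filter (Apc in rods and Slc38a5 in amacrine cells). With the replicate block, Phase I ROP gave 8 member pairs. Deviations from the group means of same-numbered control and STZ mice correlated at -0.025, 0.139 and 0.203, against -0.241 to 0.11 for different numbers. Those of the diets correlated at 0.210 and 0.428 over 2 numbers, against -0.428 to 0.259. Deviations of 2 ω-3 mice mirror each other, so the diet values are not independent. These values cannot decide whether mice were paired, and the main fits took them to share only a number. The highest mean of each gene among the 5 large classes moved by less than 1 SD under the other clustering and both doublet settings. For Phase I ROP against control, thinned sums left no member to test in cones. Depth limited Axin2, Fzd4 and Apcdd1 most, with at most 8 control UMIs in any large class.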
